A study of Saccharomyces cerevisiae with 12 samples.

Results

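The interaction of the *RAD4* and *RAD23* deletions was measured for every transcript on the array as the level in *rad4Δrad23Δ* minus that in *rad4Δ*, minus that in *rad23Δ*, plus that in wildtype. On the log2 scale it is the effect of deleting *RAD4* in cells that lack *RAD23* minus the effect of the same deletion in cells that have *RAD23*, so that 0 means that the effects of the deletions add. All 12 arrays of the series entered, 3 for each of 4 strains of *Saccharomyces cerevisiae*, and 9275 probe sets were tested after removal of the 60 control probe sets.

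The strains were the wildtype (Euroscarf Y10000), *rad4Δ* (Euroscarf Y16158), *rad23Δ* (Euroscarf Y10278) and *rad4Δrad23Δ*. All share the BY4742 background, were grown in rich medium (YPD) to an optical density of 0.5 to 0.6 and received no ultraviolet light or other treatment. The double mutant was not a Euroscarf strain but was built in the laboratory from the *rad23Δ* strain by exchanging *RAD4* for DNA that carries the *HIS3* marker. Each genotype was 1 strain, and its 3 arrays are described as biological repeats, so the effect of a genotype and any other difference of its strain cannot be told apart. Nor can fewer cells in a given state and less RNA per cell, since each array reports a whole culture.

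Rad4 binds damaged DNA in nucleotide excision repair, the pathway that cuts out ultraviolet lesions, and Rad23 is its partner, which stabilises it. Rad23 also carries a ubiquitin-like domain and a ubiquitin-binding domain and brings ubiquitinated proteins to the proteasome. The 2 proteins therefore share 1 complex while Rad23 has work outside it, and an interaction asks for which transcripts the loss of the pair differs from the sum of the single losses.

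The deleted genes were examined first. *RAD4* stood at 5.11 and 5.12 on wildtype replicates 1 and 2 but at 3.42 on wildtype replicate 3. It stood at 3.49 and 3.01 on *rad4Δ* replicates 1 and 3 but at 5.47 on *rad4Δ* replicate 2, and it lay between 5.12 and 5.44 in *rad23Δ* and between 2.70 and 2.99 in *rad4Δrad23Δ*. Thus 2 arrays carried *RAD4* signals that go against their labels. Over the 62 probe sets in which the remaining wildtype and *rad4Δ* arrays stood at least 1 log2 unit apart, the array labelled wildtype replicate 3 was nearer to the *rad4Δ* arrays in 59, and the array labelled *rad4Δ* replicate 2 was nearer to the wildtype arrays in 44. Neither array was moved to another strain. Every interaction was estimated with all 12 arrays and again with the 10 arrays left when these 2 were taken out.

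*RAD23* was 9.32 to 9.82 where the gene is intact, and was 4.88, 4.33 and 4.27 in *rad23Δ* and 3.66, 3.74 and 3.82 in *rad4Δrad23Δ*. Its signal was therefore low on all 6 arrays of the strains that lack it, and lower still in the double mutant. Markers of the MATα mating type, that of BY4742, averaged 10.53 to 11.06 on the 12 arrays, and MATa markers 3.81 to 4.19. On 1 array, *rad4Δrad23Δ* replicate 2, 56 probe sets fell more than 1.5 log2 units below both other arrays of the strain while those lay within 0.5 of each other. The same criterion picked out between 0 and 15 probe sets on each of the other arrays.

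With all 12 arrays, 8 probe sets had an interaction at an adjusted p under 0.05 (limma, Benjamini-Hochberg over 9275 probe sets). There were 5 positive ones, 0.0539 percent of those tested, and 3 negative ones, 0.0323 percent. A further look at unadjusted p-values found 827 probe sets under 0.05, or 8.92 percent. The median interaction was -0.01 with quartiles at -0.16 and 0.16, and the median standard error was 0.19. The smallest interaction called was 0.99 in size, and 98 of the 105 probe sets at or above 1 in size were not called. With all 12 arrays, then, only large departures from additivity were called, and most of the large ones were not.

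With 10 arrays, 110 probe sets were called, of which 66 were positive (0.712 percent) and 44 negative (0.474 percent). The 8 called with all arrays were among them with the same sign. The other 102 had the same sign in both analyses, and 81 of them had an unadjusted p under 0.05 with 12 arrays. Counted by gene, with the brightest probe set standing for each of 5656 genes, 50 were positive (0.884 percent) and 36 negative (0.636 percent).

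*PHO84*, which encodes the high-affinity phosphate transporter, had the largest interaction of the 8. Its level was 10.26, 10.17 and 11.10 in wildtype, 11.06, 10.39 and 11.46 in *rad4Δ*, 10.31, 10.54 and 10.65 in *rad23Δ*, and 6.05, 6.20 and 6.15 in *rad4Δrad23Δ*. The 9 arrays of the first 3 strains overlapped, and the double mutant arrays lay far below the lowest of them. The deletion of *RAD4* changed it by 0.46 (95% interval -0.12 to 1.04) in *RAD23* cells and by -4.37 (-4.95 to -3.78) in *rad23Δ* cells. The interaction was -4.83 ± 0.38 (SE, 3 arrays per strain; adjusted p = 0.000216, limma), a level 28.4-fold below the sum of the single effects. With 10 arrays it was -5.41 ± 0.20 (adjusted p = 5.15e-07, limma).

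*HXT3*, a low-affinity glucose transporter, followed another course. It was 11.48, 11.66 and 11.39 in wildtype, 11.47, 11.36 and 11.72 in *rad4Δ*, 6.40, 6.13 and 6.16 in *rad23Δ*, and 4.21, 4.10 and 3.84 in *rad4Δrad23Δ*. The wildtype and *rad4Δ* arrays overlapped, *rad23Δ* stood far below them, and the double mutant stood below *rad23Δ* with no overlap. The *RAD4* effect was 0.01 (-0.29 to 0.30) in *RAD23* cells and -2.18 (-2.47 to -1.89) in *rad23Δ* cells, and the interaction was -2.19 ± 0.19 (adjusted p = 0.000352, limma). On the linear scale the interaction was -2.47 percent of the wildtype level, the signal in *rad23Δ* being already low. The probe set of the deleted *RAD23* gene, also low in *rad23Δ*, had an interaction of -0.85 (adjusted p = 0.257, limma) in the same comparison, and the part of low signal in the *HXT3* value was not tested.

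*NQM1*, a transaldolase, rose in the double mutant alone. Its values were 4.41, 4.23 and 4.24 in wildtype, 4.19, 4.44 and 4.23 in *rad4Δ*, 4.09, 4.23 and 3.85 in *rad23Δ*, and 5.49, 5.58 and 5.49 in *rad4Δrad23Δ*. The first 3 strains overlapped, and each double mutant array lay above all of theirs. The interaction was 1.47 ± 0.16 (adjusted p = 0.00332, limma), and the level was 2.77-fold above the sum of the single effects. Values in the other strains lay near the lower quartile of the arrays, 3.85 to 4.08. The part of low signal in the *NQM1* interaction was not tested.

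*PIR3*, a glycoprotein of the cell wall, had the same shape. It lay between 4.53 and 5.14 on the 9 arrays of the other strains and at 6.10, 6.08 and 5.97 in *rad4Δrad23Δ*, with an interaction of 1.21 ± 0.16 (adjusted p = 0.0134, limma). *GRE1*, a hydrophilin induced by osmotic and other stresses, lay between 3.13 and 3.67 in the other strains and at 4.49, 4.38 and 4.46 in the double mutant, with an interaction of 1.18 ± 0.17 (adjusted p = 0.0226, limma). For both genes the intervals of the *RAD4* effect in *RAD23* cells, -0.09 to 0.40 for *PIR3* and -0.44 to 0.10 for *GRE1*, held 0, whereas those in *rad23Δ* cells, 1.11 to 1.61 and 0.74 to 1.27, did not. The *GRE1* values in the other strains lay below the lower quartile of every array, 3.85 to 4.08. The part of low signal in its interaction was not tested.

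*URA6*, the uridylate kinase of pyrimidine synthesis, was the exception among the 8. Its level was 9.52, 9.39 and 9.53 in wildtype, 10.19, 10.39 and 10.03 in *rad4Δ*, 9.81, 9.71 and 9.78 in *rad23Δ*, and 9.49, 9.51 and 9.49 in *rad4Δrad23Δ*. Here *rad4Δ* stood highest with no overlap, *rad23Δ* stood between, and the double mutant was at the wildtype level. The *RAD4* effect was 0.72 (0.50 to 0.95) in *RAD23* cells and -0.27 (-0.49 to -0.05) in *rad23Δ* cells, an interaction of -0.99 ± 0.14 (adjusted p = 0.0226, limma). For this gene the arrays in doubt sat with their labels.

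The last 2 of the 8, probe sets 3953_at and 3954_at, have no gene name in the annotation used here. 3953_at lay between 8.19 and 9.34 in the other strains and at 10.75, 10.74 and 10.69 in *rad4Δrad23Δ*, an interaction of 2.25 ± 0.33 (adjusted p = 0.0226, limma). 3954_at lay between 9.12 and 9.86 and at 11.02, 10.90 and 10.91, an interaction of 1.70 ± 0.23 (adjusted p = 0.0134, limma). Both were high in the double mutant only. The probe sets with the neighbouring numbers 3951_at and 3952_at, also unnamed, were called with 10 arrays at 1.52 and 1.59.

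**Figure D1:**
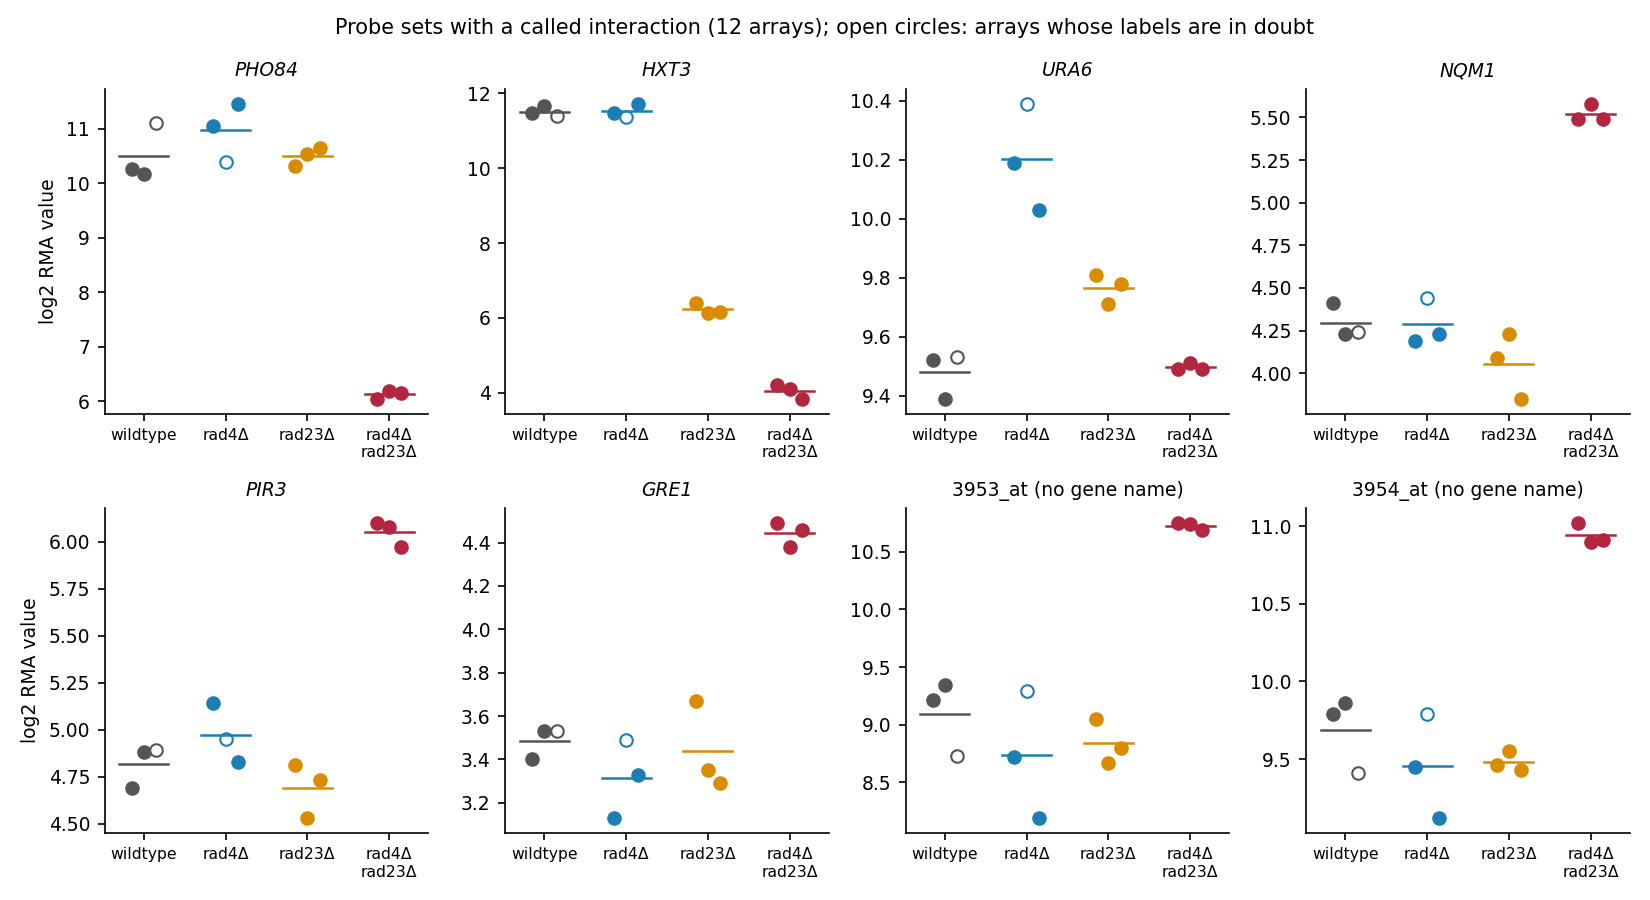
The log2 RMA value on each array (y) is plotted by strain (x) for the 8 probe sets called with 12 arrays; bars are strain means and open circles are wildtype replicate 3 and *rad4Δ* replicate 2. In 7 panels the 3 double mutant arrays stand apart from the other 9, and in the *URA6* panel *rad4Δ* stands highest.

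*PHO84*, *HXT3* and *NQM1* passed in all 12 analyses that left out 1 array. *PIR3* passed in 8, 3954_at in 6, and *URA6*, 3953_at and *GRE1* in 5 each, the highest adjusted p being 0.107 (limma) for 3953_at. For *URA6*, 3953_at and *GRE1* the call was lost without wildtype replicate 1 or 2, *rad23Δ* replicate 2 or 3, or any 1 double mutant array. *PIR3* lost it without double mutant replicate 1 or 2, wildtype replicate 2 or *rad23Δ* replicate 3, and 3954_at without wildtype replicate 1 or 2, *rad23Δ* replicate 3 or any 1 double mutant array. Leaving out a doubted array alone cost none of the 8 its call.

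The strain that stood apart was read for each called probe set as the one whose removal left the other 3 strain means closest together. With 12 arrays it was the double mutant for 7 and *rad4Δ* for 1. With 10 arrays it was the double mutant for 45 of the 110 (27 positive, 18 negative), wildtype for 32 (12 positive, 20 negative), *rad23Δ* for 19 (17 positive, 2 negative) and *rad4Δ* for 14 (10 positive, 4 negative). Of the 110, 39 passed in all 10 analyses that left out a further array, 17 with the double mutant apart, 14 with wildtype, 5 with *rad23Δ* and 3 with *rad4Δ*. *PHO84*, *SPL2*, *PHO5*, *VTC3*, *HXT3*, *HXT2*, *NQM1*, *HSP12*, *HSP26*, *HSP30*, *YGP1*, *RGI1* and *FIT2* were among these 39.

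Across all probe sets, the effect of deleting *RAD4* in *RAD23* cells and in *rad23Δ* cells, which share no arrays, correlated at r = -0.10 with 12 arrays and -0.20 with 10. The corresponding values for deleting *RAD23* were 0.18 and -0.05. These are descriptions over 9275 probe sets, which are not independent replicates.

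**Figure D2:**
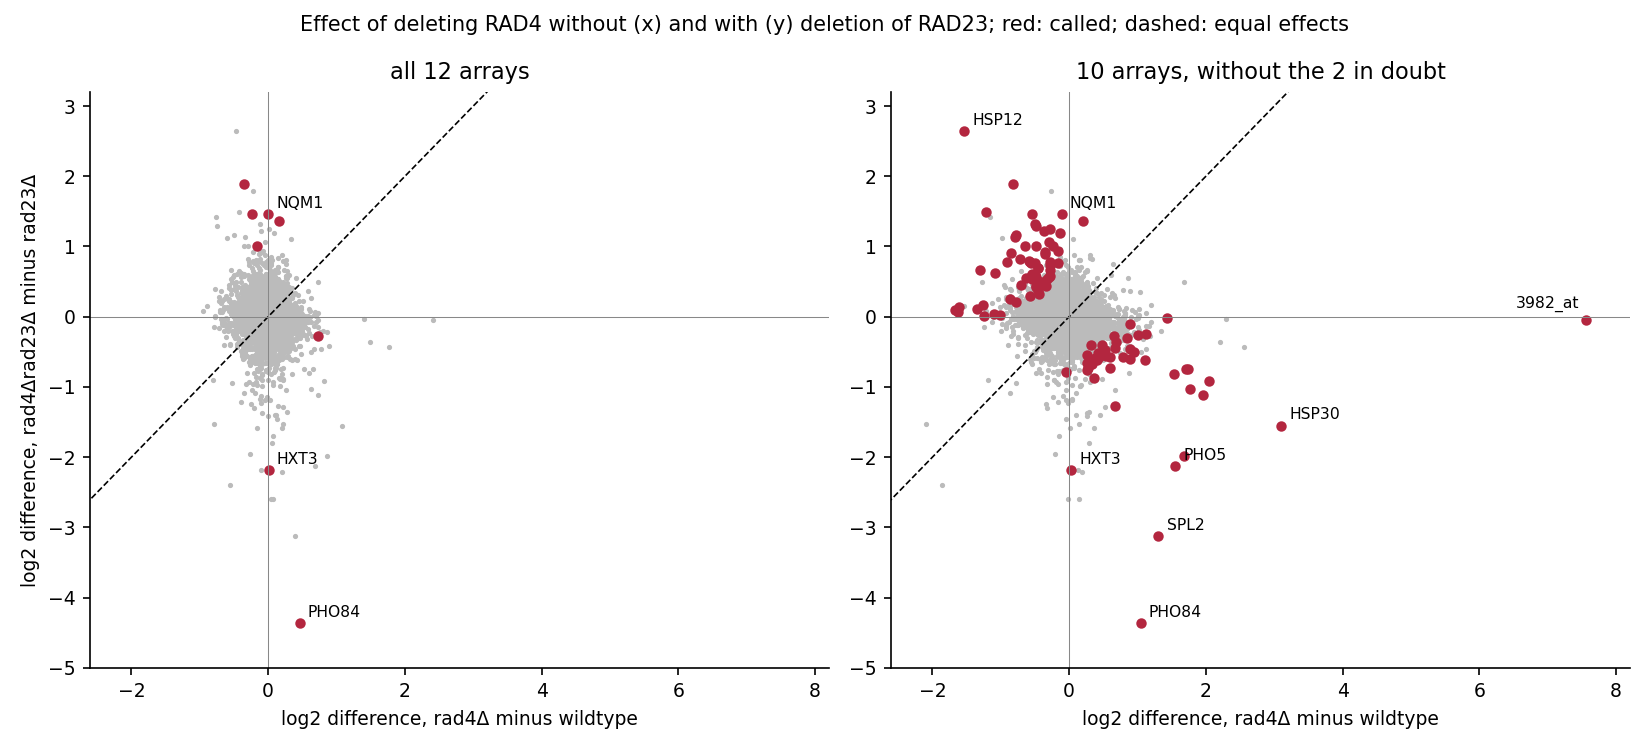
The log2 effect of deleting *RAD4* in *rad23Δ* cells (y) is plotted against that in *RAD23* cells (x) for each probe set, with 12 arrays (left) and 10 arrays (right); red points are called and the dashed line marks equal effects. Without the doubted arrays the x values spread and 110 points rather than 8 are called. Most of these lie where the effects have opposite signs, which a call on the difference of the effects favours by itself. The share of opposite signs over all probe sets was not taken.

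The phosphate regulon, the genes that Pho4 switches on when phosphate is scarce, had 18 measured members. With 12 arrays 1 was negative (*PHO84*) and none positive, beside 3 negative among all 5656 genes. With 10 arrays 7 were negative and none positive, beside 0.636 percent of all genes. The median interaction of the list was -0.41 with 12 arrays and -0.62 with 10, against 0.01 over all genes in each. With 12 arrays 15 of 18 members were below 0, where 47.8 percent of all genes were. The mean over the list was 6.49 to 6.53 on the *rad4Δrad23Δ* arrays and 7.12 to 7.59 on the others, with no overlap. Other lists were apart in the same way, among them heat shock, storage carbohydrate, hexose, ribosome biogenesis, nucleotide synthesis and ribonucleotide reductase genes. When a further array was left out of the 10, 4 to 7 members stayed negative, with 4 left without wildtype replicate 2 or any 1 double mutant array. From the 12, leaving out *rad4Δ* replicate 2 gave 4 negative members and leaving out wildtype replicate 3 gave 3.

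*SPL2*, which encodes a small protein that limits low-affinity phosphate uptake, was 5.60, 5.36 and 7.17 in wildtype, 7.11, 5.75 and 6.46 in *rad4Δ*, 6.12, 6.09 and 6.08 in *rad23Δ*, and 3.16, 3.01 and 2.74 in *rad4Δrad23Δ*. The double mutant lay below every other array. Its interaction was -3.52 (adjusted p = 0.0516, limma) with 12 arrays and -4.43 ± 0.27 (adjusted p = 3.03e-05, limma) with 10. The double mutant values lay below the lower quartile of those arrays, 3.88 to 3.91, and the part of low signal was not tested.

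*PHO5*, the secreted acid phosphatase, was 7.33, 7.27 and 8.59 in wildtype, 8.52, 7.56 and 9.17 in *rad4Δ*, 7.55, 7.95 and 7.97 in *rad23Δ*, and 5.57, 5.81 and 5.70 in the double mutant. Again the double mutant alone was low. The interaction was -2.82 (adjusted p = 0.089, limma) with 12 arrays and -3.68 ± 0.28 (adjusted p = 9.53e-05, limma) with 10. In the 10 arrays the *RAD4* effect on *PHO5* was 1.55 (1.07 to 2.02) in *RAD23* cells and -2.13 (-2.52 to -1.74) in *rad23Δ* cells.

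The other 4 called with 10 arrays were smaller. The vacuolar polyphosphate synthesis complex contributed *VTC3* (-1.95 ± 0.14), *VTC1* (-1.02 ± 0.16) and *VTC4* (-1.01 ± 0.19, with -1.02 at its other probe set). *PHO81*, the inhibitor of the Pho80-Pho85 kinase that holds the regulon off, was at -0.94 ± 0.18. *PHO90*, a low-affinity phosphate transporter, was at -0.41 and did not pass (adjusted p = 0.505, limma).

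Among the 18 hexose transporters and sensors measured, *HXT3* was the 1 called with 12 arrays, beside 3 negative among all 5656 genes. *HXT2* and *MTH1* were added with 10, and all were negative, beside 0.636 percent of all genes negative with 10 arrays. *HXT2*, a high-affinity glucose transporter, was 8.41, 8.55 and 9.05 in wildtype, 9.21, 8.47 and 8.96 in *rad4Δ*, 10.09, 9.81 and 9.94 in *rad23Δ*, and 9.19, 9.26 and 9.20 in the double mutant. Thus it was highest in *rad23Δ*, opposite to *HXT3*, and its 10-array interaction was -1.34 ± 0.17 (adjusted p = 0.0055, limma). *MTH1*, a corepressor of *HXT* genes when glucose is low, was at -1.11 ± 0.18, a call lost without double mutant replicate 1 or 2, *rad23Δ* replicate 2 or wildtype replicate 2. *HXT1*, another low-affinity transporter, was at -1.24 and did not pass (adjusted p = 0.144, limma). The list median was -0.06 with 12 arrays and -0.04 with 10.

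Genes induced by the general stress activators Msn2 and Msn4 formed the largest group on the positive side. With 12 arrays 2 of 40 (*NQM1* and *GRE1*) were positive, beside 3 positive among all 5656 genes. With 10 arrays 10 were, beside 0.884 percent of all genes, and none was negative in either. The list median was 0.49 with 12 arrays and 0.55 with 10, and 36 of 40 members were above 0 with 12 arrays, where 52.0 percent of all genes were. The list mean was 8.04 to 8.07 on the double mutant arrays and 7.44 to 7.74 on the other 9, a separation that other lists had as well. The count of 10 fell to 4 without wildtype replicate 2 or double mutant replicate 1, to 5 without *rad23Δ* replicate 2 or double mutant replicate 2 or 3, and to 6 without *rad23Δ* replicate 3, and it was 15 without *rad4Δ* replicate 1. The count of 2 was 5 without either doubted array alone, 3 without *rad4Δ* replicate 1 or 3, and 1 without wildtype replicate 1 or 2, *rad23Δ* replicate 2 or 3 or any 1 double mutant array.

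*HSP12*, a small heat shock protein at the plasma membrane, was 10.65, 10.69 and 9.20 in wildtype, 9.25, 10.86 and 9.01 in *rad4Δ*, 8.46, 8.60 and 8.41 in *rad23Δ*, and 11.09, 11.18 and 11.12 in *rad4Δrad23Δ*. The double mutant was highest and *rad23Δ* lowest, with no overlap of either with any other strain, while the wildtype and *rad4Δ* arrays overlapped through the arrays in doubt. Its interaction was 3.11 (adjusted p = 0.121, limma) with 12 arrays and 4.18 ± 0.16 (adjusted p = 5.15e-07, limma) with 10. In the 10 arrays either deletion alone was accompanied by a lower level, by -1.54 (-1.81 to -1.27) for *RAD4* and by -2.18 (-2.43 to -1.93) for *RAD23*, and the pair by a level above wildtype.

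*HSP26*, a small heat shock chaperone, was 8.78, 8.89 and 7.60 in wildtype, 7.58, 8.78 and 7.65 in *rad4Δ*, 6.85, 6.79 and 6.81 in *rad23Δ*, and 8.34, 8.29 and 8.29 in the double mutant. Unlike *HSP12*, its double mutant level stayed below wildtype replicates 1 and 2. The 10-array interaction was 2.71 ± 0.13 (adjusted p = 4.42e-06, limma). The other positive members with 10 arrays were *YGP1*, a secreted glycoprotein (1.93 ± 0.21), *GPH1*, glycogen phosphorylase (1.78 ± 0.35), *TFS1*, an inhibitor of carboxypeptidase Y (1.35 ± 0.22), *PAI3*, an inhibitor of proteinase A (1.25 ± 0.25), *MSC1* (0.92 ± 0.17) and *HXK1*, a hexokinase (0.77 ± 0.15). *DDR2*, a stress gene used as a marker of the response, was at 2.10 and did not pass (adjusted p = 0.145, limma).

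*HSP30*, a stress protein of the plasma membrane, went the other way. It was 7.62, 7.35 and 10.57 in wildtype, 10.55, 7.62 and 10.63 in *rad4Δ*, 10.41, 10.38 and 10.37 in *rad23Δ*, and 8.85, 8.74 and 8.92 in *rad4Δrad23Δ*. Leaving the doubted arrays aside, each single deletion stood about 3 log2 units above wildtype and the double mutant stood between. The interaction was -4.66 ± 0.16 (adjusted p = 3.63e-07, limma) with 10 arrays and -2.64 (adjusted p = 0.555, limma) with 12. Of the 27 heat shock proteins and chaperones measured, 4 were positive with 10 arrays (*HSP12*, *HSP26*, *SSE2* and *MDJ1*) and *HSP30* was the 1 negative, beside 0.884 and 0.636 percent of all genes, with a list median of -0.10. The 4 became 2 when any 1 double mutant array, *rad23Δ* replicate 3 or wildtype replicate 2 was left out, and without *rad4Δ* replicate 1 the negative count became 3. With 12 arrays none was called (limma). At an unadjusted p under 0.05, 7 were positive and 1 negative, beside 6.35 and 4.38 percent of all genes.

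Several genes shared the *HSP30* shape with 10 arrays, wildtype low, both single deletions high and the double mutant between. *RGI1*, a gene of respiratory growth, was 7.59, 7.46 and 9.40 in wildtype, 9.28, 7.65 and 9.70 in *rad4Δ*, 9.19, 9.33 and 9.13 in *rad23Δ*, and 8.04, 8.10 and 8.17 in the double mutant. Its interaction was -3.08 ± 0.19 (adjusted p = 3.41e-05, limma) with 10 arrays and -1.84 (adjusted p = 0.493, limma) with 12. *EGO4* (-2.80), *YOL014W* (-2.49), *ISF1* (-2.46), *DIA1* (-2.35) and *CMK2*, a calmodulin-dependent kinase (-1.73), had wildtype as the strain apart as well. In these genes wildtype replicate 3 sat with the other *rad4Δ* arrays and *rad4Δ* replicate 2 with the other wildtype arrays.

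**Figure D3:**
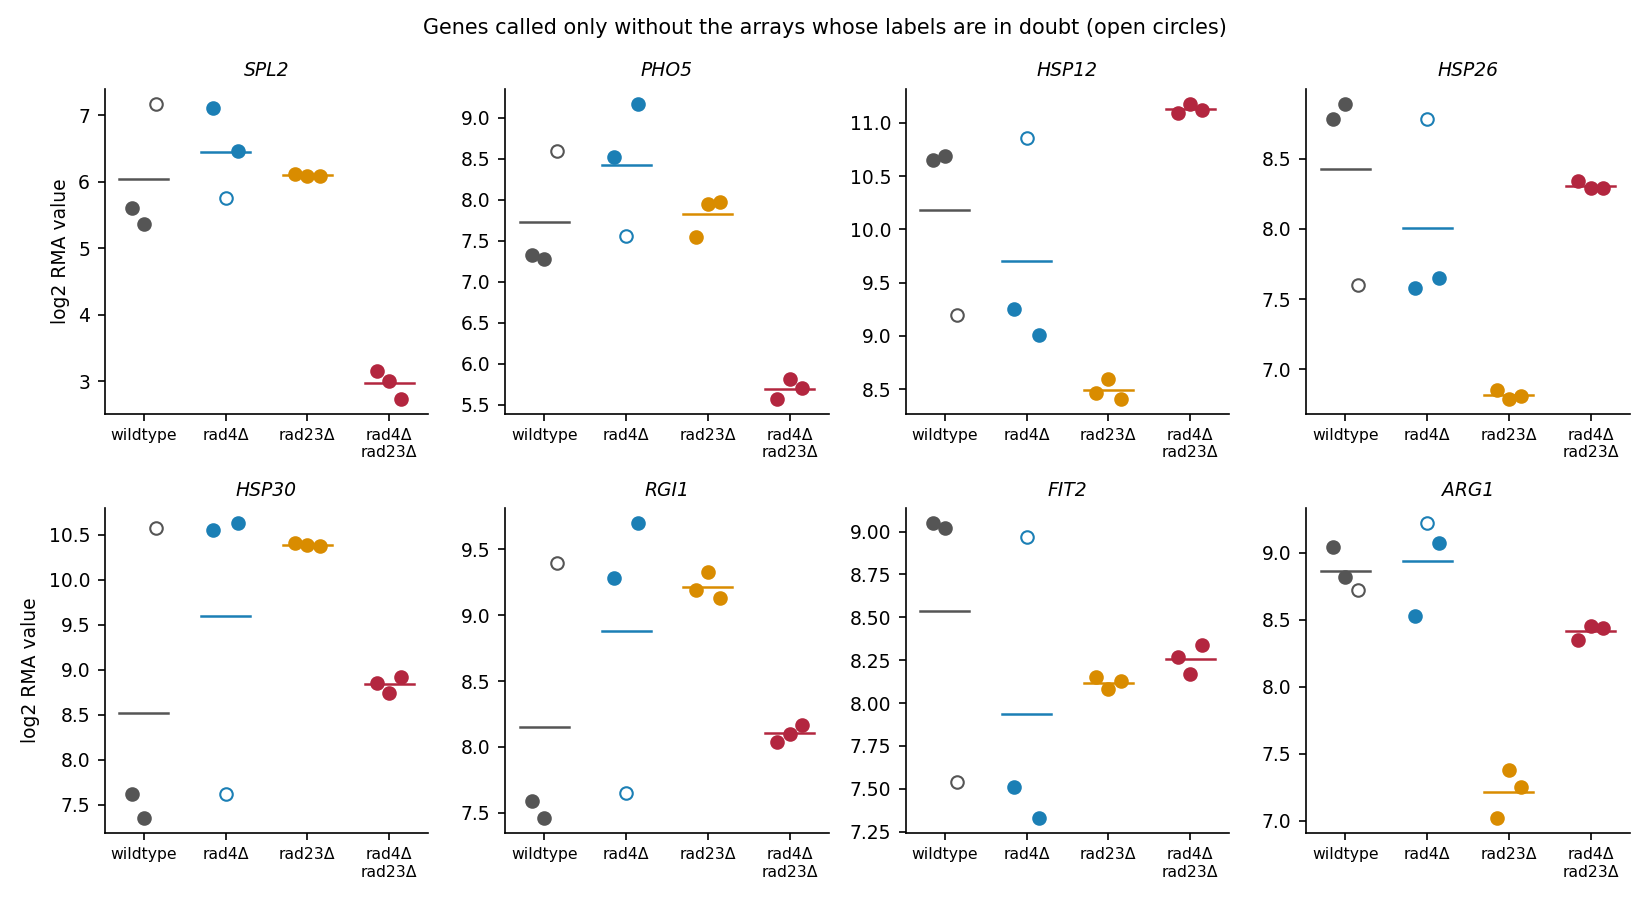
The log2 RMA value on each array (y) is plotted by strain (x) for 8 genes called with 10 arrays but not with 12; bars are means of 3 arrays and open circles are the doubted arrays. In the *HSP12*, *HSP26*, *HSP30*, *RGI1*, *FIT2*, *SPL2* and *PHO5* panels the open circles sit near the filled circles of the other of the wildtype and *rad4Δ* strains.

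Storage carbohydrate genes moved in both directions. Of 20 measured, *GPH1* and *GDB1*, which break glycogen down, were positive with 10 arrays (1.78 ± 0.35, called in 1 of the 10 analyses that left out an array, and 1.32 ± 0.23, called in 2), and *GSY1* and *GLG1*, a glycogen synthase and a glycogenin that build it, were negative (-1.44 ± 0.22, called in 9 of them, and -1.27 ± 0.21, called in 5). Over all genes 0.884 percent were positive and 0.636 percent negative. The negative count of 2 became 4 without *rad4Δ* replicate 1, 1 without *rad23Δ* replicate 3 or any 1 double mutant array, and 0 without wildtype replicate 2. The positive count of 2 became 3 without *rad4Δ* replicate 1, 1 without wildtype replicate 1 or *rad23Δ* replicate 1, and 0 without any other 1 array. With 12 arrays none was called (limma). At an unadjusted p under 0.05, 4 were positive and 1 negative, beside 6.35 and 4.38 percent of all genes.

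The cell wall list had 34 measured members, of which *PIR3* was positive with 12 arrays, beside 3 positive among all 5656 genes. *PIR3* and *GSC2*, an alternative glucan synthase subunit, were positive with 10, beside 0.884 percent of all genes. The 10-array count of 2 was 5 without *rad4Δ* replicate 1, 3 without *rad23Δ* replicate 1, and 1 without any 1 double mutant array, *rad23Δ* replicate 3 or wildtype replicate 2. *PIR3* was called in 5 of those 10 analyses. *GSC2* was at 1.69 ± 0.18 at its brightest probe set, called in all 10, and at 1.98 ± 0.37 at a second one, called in 2, whereas 5 further probe sets for it ranged from 0.09 to 1.77 with 10 arrays and did not pass.

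Siderophore and iron uptake genes, a list of 22 added after the values were seen, had no member called with 12 arrays (limma; 2 positive at an unadjusted p under 0.05, beside 6.35 percent of all genes) and 6 positive with 10, beside 0.884 percent of all genes. The 6 became 3 when *rad23Δ* replicate 3, double mutant replicate 3 or wildtype replicate 2 was left out. *FIT2*, a cell wall mannoprotein that retains siderophores, was 9.05, 9.02 and 7.54 in wildtype, 7.51, 8.97 and 7.33 in *rad4Δ*, 8.15, 8.08 and 8.13 in *rad23Δ*, and 8.27, 8.17 and 8.34 in *rad4Δrad23Δ*. With the doubted arrays aside, wildtype was highest, *rad4Δ* lowest, and the double mutant near *rad23Δ*. Its interaction was 0.74 (adjusted p = 0.77, limma) with 12 arrays and 1.76 ± 0.15 (adjusted p = 0.000217, limma) with 10. The others were *FIT3* (1.77), *TIS11*, which promotes decay of messages for iron-using proteins (1.70), the siderophore transporters *ARN1* (1.42), *ARN2* (1.26) and *SIT1* (0.87). The list median moved from 0.28 to 0.50.

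Arginine metabolism gave 2 positive genes of 14 with 10 arrays, beside 0.884 percent of all genes. *ARG1*, argininosuccinate synthetase, was 9.04, 8.82 and 8.72 in wildtype, 8.53, 9.22 and 9.07 in *rad4Δ*, 7.02, 7.38 and 7.25 in *rad23Δ*, and 8.35, 8.45 and 8.44 in the double mutant. It was lowest in *rad23Δ*, with no overlap, and the double mutant lay closer to wildtype. The interaction was 1.12 (adjusted p = 0.121, limma) with 12 arrays and 1.33 ± 0.24 (adjusted p = 0.0291, limma) with 10, called in 4 of the 10 analyses that left out an array. *ARG4*, argininosuccinate lyase, had the same order of strains, at 0.94 ± 0.18 with 10 arrays, and was called in 2 of those analyses. *PRM1*, a membrane protein of mating-cell fusion, was also lowest in *rad23Δ* (1.28 ± 0.23 with 10 arrays). It was the 1 positive call among 27 pheromone-induced genes, beside 0.884 percent of all genes, called in 2 of the 10 analyses that left out an array, and *PRM7* the 1 negative, beside 0.636 percent (-0.75 ± 0.15, adjusted p = 0.0466, limma, with 10 arrays and -0.88, adjusted p = 0.0516, with 12), a call that held in none of the 10 analyses that left out an array.

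*AMS1*, *VMR1*, *YMR196W* and *NCA3* also had large interactions with 10 arrays. *AMS1*, the vacuolar α-mannosidase, was 6.44, 6.40 and 5.21 in wildtype, 5.86, 6.52 and 5.29 in *rad4Δ*, 5.62, 5.50 and 5.46 in *rad23Δ*, and 6.38, 6.42 and 6.51 in *rad4Δrad23Δ*. The double mutant sat at the level of wildtype replicates 1 and 2, while wildtype replicate 3 was the lowest of all arrays and *rad4Δ* replicate 2 the highest. The interaction was 1.76 ± 0.22 (adjusted p = 0.00443, limma) with 10 arrays and 1.04 (adjusted p = 0.552, limma) with 12. *VMR1*, a vacuolar transporter of the ABC family, was 1.70 ± 0.27 with 10 arrays and was not called with 12 (1.02, adjusted p = 0.555, limma). Its 10-array call was lost without double mutant replicate 3, *rad23Δ* replicate 3 or wildtype replicate 2. *YMR196W* was highest in the double mutant, at 8.16, 8.29 and 8.22 against 6.65 to 7.53 on the other 9 arrays, with an interaction of 1.82 ± 0.18 with 10 arrays and 1.45 (adjusted p = 0.0764, limma) with 12. *NCA3* was at 1.94 ± 0.37 with 10 arrays, called in 2 of the 10 analyses that left out an array, and at 1.66 (adjusted p = 0.121, limma) with 12.

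Of 29 sulfur and methionine genes, *MUP3*, a low-affinity methionine permease, was the 1 called with 10 arrays, beside 0.636 percent of all genes negative. Its interaction was -1.49 ± 0.18 there and -0.99 (adjusted p = 0.398, limma) with 12. With 10 arrays wildtype was lowest, at 5.32 and 5.27, and the double mutant lay at 5.69, 5.70 and 5.69.

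*HIS3*, whose fragment replaced *RAD4* in the double mutant, was 8.98, 9.01 and 8.93 in wildtype, 9.10, 9.01 and 8.57 in *rad4Δ*, 8.83, 8.59 and 8.61 in *rad23Δ*, and 9.66, 9.56 and 9.60 in *rad4Δrad23Δ*. The double mutant was highest without overlap. The interaction was 1.01 ± 0.19 (adjusted p = 0.0764, limma) with 12 arrays and 1.09 ± 0.22 (adjusted p = 0.0466, limma) with 10, and 0.55 and 0.67 at the second *HIS3* probe set, which did not pass. The 10-array call held in 2 of the 10 analyses that left out an array. The 7 neighbours of the deleted genes and of the marker had no member called (limma). With 12 arrays 1 was positive at an unadjusted p under 0.05, beside 6.35 percent of all genes.

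**Figure D4:**
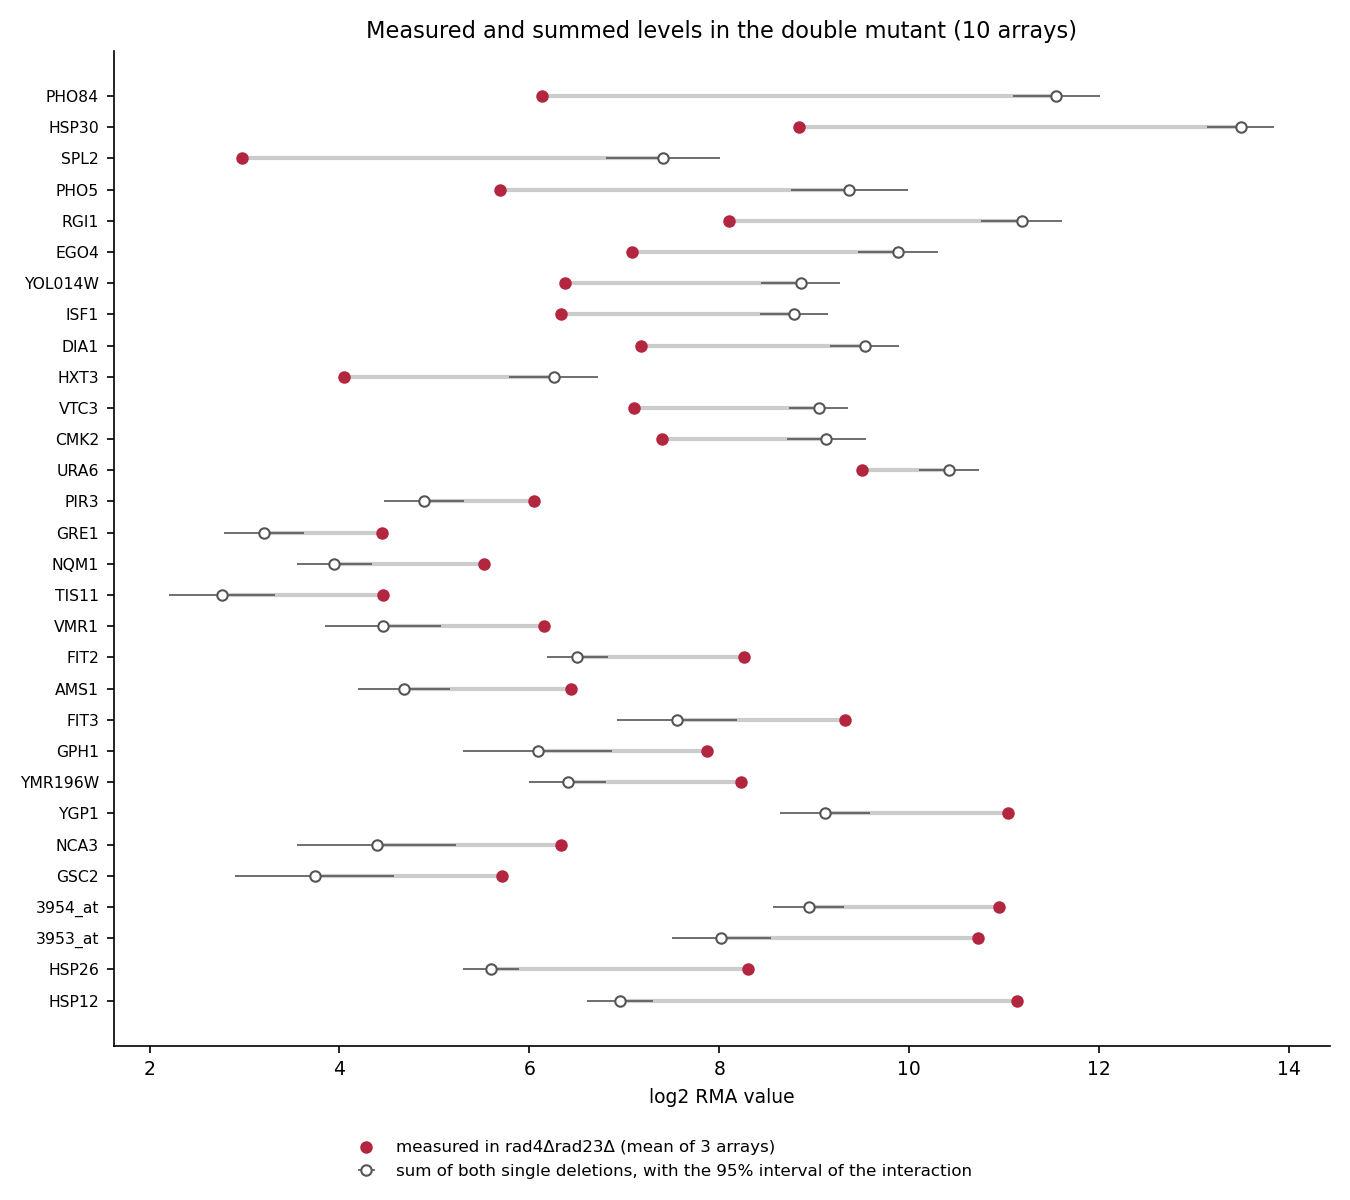
The level measured in *rad4Δrad23Δ* (red, mean of 3 arrays) is plotted beside the level that the sum of the single effects gives (open, with the 95% interval of the interaction) on the log2 scale (x) for probe sets named by the largest interactions with 10 arrays or called with 12. Of the probe sets plotted, which leave out the unnamed 3982_at, *PHO84* is the farthest below its sum, at 6.13 against 11.55, and *HSP12* the farthest above, at 11.13 against 6.95.

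The ribonucleotide reductase and Crt1 genes, which supply deoxynucleotides and are repressed by Crt1 (Rfx1) in undamaged cells, had 13 measured members and none called in either analysis (limma), with 4 positive at an unadjusted p under 0.05 with 12 arrays, beside 6.35 percent of all genes. Leaving out 1 array raised the count from 0 to 2 without *rad23Δ* replicate 1 and to 1 without *rad4Δ* replicate 1 or 3, and with 10 arrays to 3 without *rad4Δ* replicate 1 and to 2 without *rad23Δ* replicate 1. *HUG1*, a small protein that inhibits the reductase, came nearest. It was 4.78, 4.97 and 4.85 in wildtype, 5.17, 4.74 and 4.04 in *rad4Δ*, 4.63, 3.97 and 4.17 in *rad23Δ*, and 6.24, 5.88 and 6.01 in *rad4Δrad23Δ*. The double mutant did not overlap any other strain, which does not by itself measure an interaction. How many of all probe sets are apart in this way was not counted. The interaction of *HUG1*, 2.00 ± 0.34, missed the threshold (adjusted p = 0.0628, limma, and 0.0543 with 10 arrays). This interaction passed in 5 of 10 alternatives: median-centred arrays, a further quantile normalisation, array weights and either replicate block. The estimation of array weights stopped before convergence, and the highest adjusted p of the 10 was 0.0706 (limma). *HUG1* also passed in 3 of the 12 analyses that left out an array. *RNR3*, the damage-inducible large subunit, was 5.63, 5.62 and 5.74 in wildtype, 5.60, 5.68 and 5.12 in *rad4Δ*, 5.42, 4.86 and 4.72 in *rad23Δ*, and 6.16, 5.94 and 5.98 in the double mutant, with an interaction of 1.22 ± 0.26 (adjusted p = 0.121, limma). The subunit genes *RNR1*, *RNR2* and *RNR4* were at 0.56, 0.48 and 0.14, the Dun1 kinase gene at 0.45 (adjusted p = 0.483, limma), and *SML1*, the reductase inhibitor, at 0.24. The list median was 0.19 with 12 arrays and 0.29 with 10. With 12 arrays 11 of 13 members were above 0, where 52.0 percent of all genes were.

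The 17 measured checkpoint genes, the 23 of nucleotide excision repair and the 39 of the proteasome and ubiquitin shuttles had no called member in either analysis (limma). At an unadjusted p under 0.05 with 12 arrays there were 2 positive checkpoint genes, 4 negative repair genes and 1 negative gene of the proteasome list. Over all genes 6.35 percent were positive and 4.38 percent negative at that threshold. The repair list includes the deleted genes *RAD4* and *RAD23*. Checkpoint kinase genes were near 0 with 12 arrays: *MEC1* at -0.04, *TEL1* at -0.01, *CHK1* at -0.08 and *RAD53* at 0.14. The signs of *MEC1*, *TEL1* and *CHK1* changed when some single arrays were left out. The list medians with 12 arrays were 0.14, 0.00 and 0.04 in that order. *ACT1*, the actin gene, was at -0.08 (adjusted p = 0.872, limma).

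Ribosome biogenesis genes leaned to the negative side. Of 45 measured, 40 were below 0 with 12 arrays, where 47.8 percent of all genes were, with a median of -0.35, and none was called (limma), with 14 negative at an unadjusted p under 0.05, beside 4.38 percent of all genes. With 10 arrays the median was -0.44 and 2 were negative, beside 0.636 percent, *YTM1*, a ribosome assembly factor (-0.71 ± 0.13), and *TOD6*, a repressor of this gene group (-0.92 ± 0.18). The most negative member, *EBP2*, a ribosomal RNA processing factor, was 8.10, 4.76 and 8.11 in *rad4Δrad23Δ* and between 7.95 and 8.67 elsewhere. The counts of 2 became 0 without wildtype replicate 2, *rad4Δ* replicate 3, *rad23Δ* replicate 2 or 3 or any 1 double mutant array, and 7 without *rad4Δ* replicate 1. The interaction of *EBP2* was -1.41 (adjusted p = 0.703, limma) with this 1 array low, and *FBA1*, *RPL38* and *URA4* were low on the same array, at 9.58, 8.15 and 7.65. Nucleotide synthesis genes had 23 of 27 members below 0 with 12 arrays, where 47.8 percent of all genes were, with a median of -0.28. *URA6* was the 1 called, negative with 12 arrays and with 10. Among all 5656 genes 3 were negative with 12 arrays, and 0.636 percent were with 10.

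Respiration and citric acid cycle genes leaned the opposite way. Of 42 measured, 38 were above 0 with 12 arrays, where 52.0 percent of all genes were, with a median of 0.28, and none was called (limma), with 11 positive at an unadjusted p under 0.05, beside 6.35 percent of all genes. With 10 arrays the median was 0.43 and *CYT1*, cytochrome c1, was positive (0.91 ± 0.18), beside 0.884 percent of all genes. The count of 1 became 8 without *rad4Δ* replicate 1, 2 without wildtype replicate 1, and 0 without any other 1 array except *rad23Δ* replicate 1, where it was 1. The 21 measured ribosomal protein genes had none called (limma), none at an unadjusted p under 0.05, and a median of -0.06. With 12 arrays 19 of them were below 0, where 47.8 percent of all genes were.

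**Figure D5:**
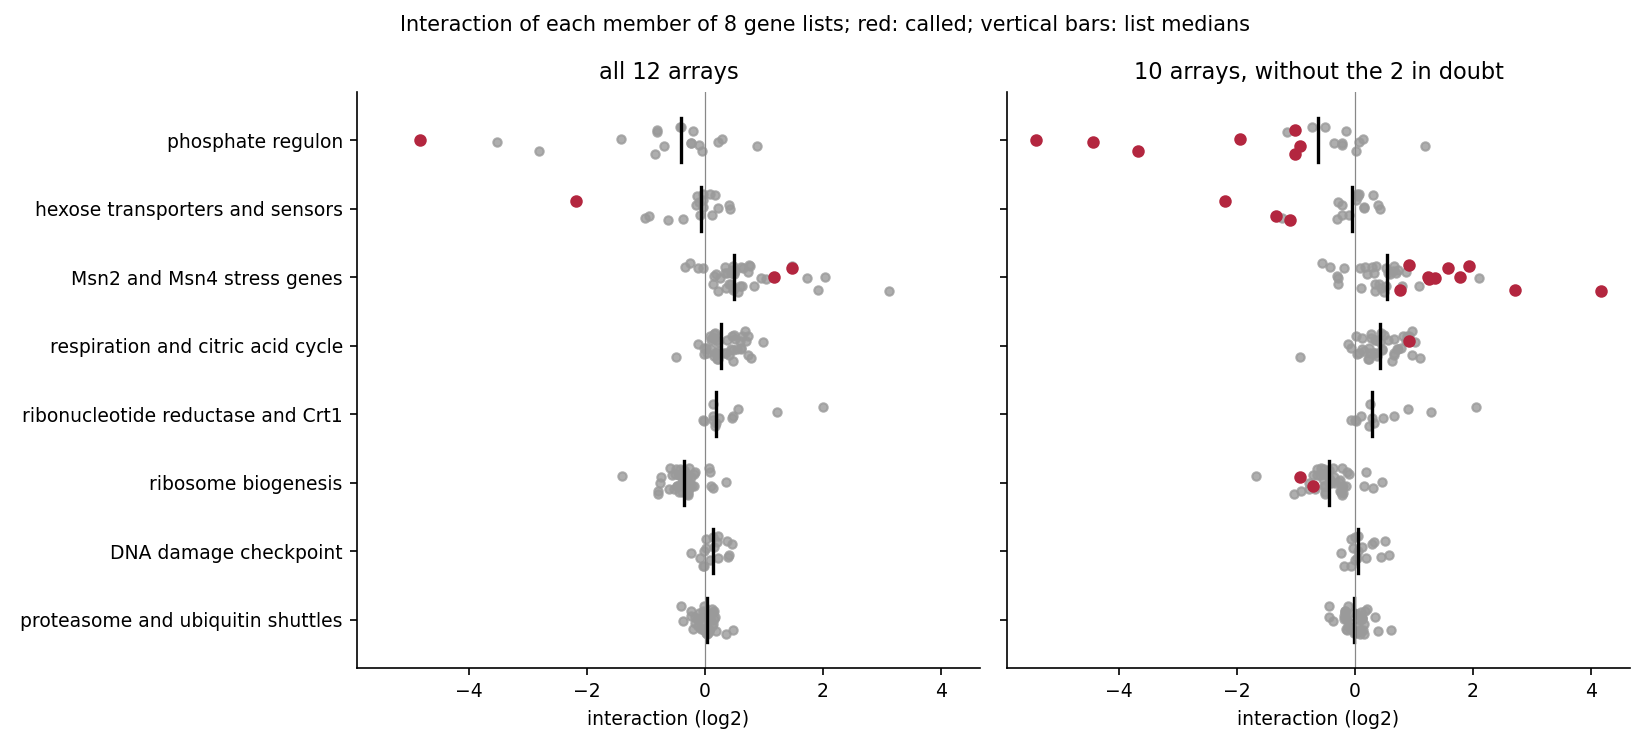
Each point is 1 gene's interaction on the log2 scale (x) in 8 gene lists (y), with 12 arrays (left) and 10 arrays (right); red points are called, vertical bars are list medians, and vertical jitter carries no value. The phosphate list holds the most negative members, the stress list lies mostly above 0, and the checkpoint and proteasome lists lie around 0.

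A single probe set without a gene name, 3982_at, picked out because its interaction was the largest with 10 arrays, was 4.75, 4.63 and 12.18 in wildtype, 12.15, 4.28 and 12.36 in *rad4Δ*, 12.06, 12.24 and 12.32 in *rad23Δ*, and 12.20, 12.16 and 12.11 in the double mutant. It was low on 3 arrays and at 1 high level on the other 9, and the array labelled *rad4Δ* replicate 2 was among the low ones. Its interaction was -7.62 (adjusted p = 9.13e-09, limma) with 10 arrays and -2.46 (adjusted p = 0.852, limma) with 12. Leaving the doubted arrays aside, both single deletions already stood at the level of the double mutant, so the 10-array value restates that wildtype was low. The part of an upper limit of the signal was not tested.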

How the data were processed

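Total RNA from 12 untreated cultures was hybridised to 1-colour Affymetrix S98 arrays. The authors deposited log2 values, summarised per probe set by RMA across the arrays; the submitters' processing notes name Microarray Suite 5.0, R 2.0.1, Bioconductor 1.5 and affy 1.5.8. These log2 values were used as deposited. The genome build is not given in the sources used here, and the number of arrays limits the precision.

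The interaction was tested as a contrast of the 4 strain means with moderated variances (limma version 3.58.1, R version 4.3.3), first with 12 arrays (8 residual degrees of freedom) and then with 10 (6). P-values were adjusted by Benjamini-Hochberg over 9275 probe sets, and called means an adjusted p under 0.05. The test was checked on simulated data for 12 arrays, with effects in the double mutant only. That simulation held no effects of single deletions and no arrays with doubtful labels, and the analysis of 10 arrays was not simulated. Effects of 1 deletion within a background are estimates with 95% intervals and were not called. The study names no test for the arrays.

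Of the probe sets, 6504 have 1 gene name, 328 several and 2443 none; symbols were updated through RefSeq, and a gene in a list is represented by its brightest probe set. Named genes are all called with 12 arrays, the 12 largest in each direction with 10 arrays and 1 name, *RAD4*, *RAD23* and *HIS3*, the 3 largest and all called of each of 30 lists, and a set of damage-response genes. 3982_at and the iron list were added after the values were seen. The members and lists were chosen with earlier results of these data known. Lists are described by counts and medians. A planned search of promoter sequences was not run. Alternatives covered normalisation, dim probe sets, variance models, array weights, blocks for the replicate number, thresholds and each array left out.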

Additional observations from a re-analysis of the deposited data

Results flagged for a closer look

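For 8 probe sets the effect of deleting *RAD4* differed between *rad23Δ* cells and *RAD23* cells by the test of the difference itself (limma, 12 arrays). The difference was -4.83 for *PHO84*, with an effect of 0.46 in *RAD23* cells and -4.37 in *rad23Δ* cells. It was -2.19 for *HXT3* (0.01 and -2.18) and -0.99 for *URA6* (0.72 and -0.27). On the positive side it was 2.25 for 3953_at (-0.36 and 1.89), 1.70 for 3954_at (-0.23 and 1.46), 1.47 for *NQM1* (-0.01 and 1.46), 1.21 for *PIR3* (0.15 and 1.36) and 1.18 for *GRE1* (-0.17 and 1.01). With 3 arrays per strain no test for a single deviating array was made.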

How the results depend on the processing

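The 8 probe sets called with 12 arrays kept their sign under every alternative and passed in every alternative that tested them other than leaving out 1 array, except that *URA6* fell short of an added minimum size of 1. *HXT3*, *NQM1* and *GRE1* had a strain mean under 4.5, so the alternative with that floor did not test them. The number called was 13 with median-centred arrays, 14 after a further quantile normalisation, 24 at an adjusted p under 0.1, 5 without probe sets that had a strain mean under 4.5, 110 without both doubted arrays, and 1016 with array weights, whose estimation stopped before convergence; the causes were not tested. Leaving out 1 array gave 3 to 24 calls: 4 and 3 without wildtype replicates 1 and 2, 19 without wildtype replicate 3, 20 and 24 without *rad4Δ* replicates 1 and 2, 14 and 3 without *rad23Δ* replicates 1 and 3, and 3, 3 and 4 without the double mutant replicates in order. With 10 arrays, 190 were called at an adjusted p under 0.1, and leaving out 1 more array gave 39 to 326 calls: 39 without wildtype replicate 2, 326 without *rad4Δ* replicate 1, 73 and 61 without *rad23Δ* replicates 2 and 3, and 54, 57 and 53 without the double mutant replicates. The other alternatives gave 85 to 145, apart from the replicate block. After the mean of each strain over its 3 arrays was subtracted, same-numbered arrays of different strains correlated at r from -0.37 to 0.61. The value was over 0.1 in 10 of 18 pairs. Among arrays of other strains, the best match carried the same number for 7 of 12 arrays. Since not every pair exceeded 0.1 and no label ties the numbers to a shared culture, they were not taken as pairs. A replicate block gave 16 calls with 12 arrays and 65 with 10, 64 of them among the 110, and a random replicate block 17 with 12. No named interaction called with 12 arrays changed sign. Those of *RNR4*, *RAD9*, *CHK1*, *MEC1* and *TEL1*, none of them called, did under some alternative to the 12-array analysis, and those of *RFX1*, *RAD9*, *CHK1*, *MEC1*, *TEL1* and *RAD53* did between analyses that left out 1 of the 10 arrays.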
